A study of Homo sapiens with 48 samples.

Results

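The E2F family and its DP partners were read across all 16 groups of an RNA-seq study of H1975, an EGFR-mutant non-small cell lung cancer cell line. The 10 members, taken by symbol from the 27978 symbols of the count table, were E2F1 to E2F8, TFDP1 and TFDP2, and all 10 passed the filter on low counts. Each group had 3 libraries from separate biological replicates of the same line, 48 in all. Cells were treated for 24 h with CKI (1 or 2 mg/mL) together with gefitinib (50 or 75 µM), YFSJ (2.5 or 5 mg/mL) together with gefitinib (50 or 75 µM), CKI alone (1 or 2 mg/mL), YFSJ alone (2.5 or 5 mg/mL) or gefitinib alone (50 or 75 µM). Untreated cells were taken at 24 h and at 0 h. CKI and YFSJ are 2 preparations that the labels name only by these abbreviations, and gefitinib is an inhibitor of the EGFR kinase. No vehicle is named for the untreated cells. All groups share 1 cell line grown in serum, so the results describe that line only.

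E2F proteins switch on and off the genes that carry a cell from G1 into S phase. E2F1, E2F2 and E2F3 activate these genes once cyclin-dependent kinases have phosphorylated the retinoblastoma protein that holds them back, whereas E2F4 and E2F5 mostly act with the pocket proteins as repressors in resting and early G1 cells. E2F6 represses with Polycomb proteins and needs no pocket protein, and the atypical members E2F7 and E2F8 repress E2F targets late in S phase. E2F1 to E2F6 bind DNA as pairs with a DP protein, encoded by TFDP1 or TFDP2, while E2F7 and E2F8 bind without one. Several E2F genes carry E2F sites in their own promoters, so the family regulates itself.

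The promoters of 5 members are shown. E2F1, E2F2 and TFDP1 fell with gefitinib and with CKI, E2F3 fell with gefitinib only, and E2F7 rose with both. RefSeq windows (GRCh38.p14) were found for 8 of the 10 members; E2F5 and E2F8 had no entry. Where the table held several starts (2 for E2F3, 3 for TFDP2), the most upstream one was used and the others were not searched. Each sequence is the 150 bases before the gene's start, 5′ to 3′ on the gene's strand. Capitals mark any match on either strand to an E2F site in 1 of 4 spellings, the spelling TTTCGCG, the spelling TTTGGCG, the spelling TTTCCCG or the spelling TTTGCCG, and matches that overlap are joined into 1 run.
E2F1 promoter, chr20:33686386-33686535, minus strand: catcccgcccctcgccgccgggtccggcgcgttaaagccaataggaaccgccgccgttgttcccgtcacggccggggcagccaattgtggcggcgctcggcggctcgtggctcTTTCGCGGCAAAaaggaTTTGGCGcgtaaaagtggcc
E2F2 promoter, chr1:23531234-23531383, minus strand: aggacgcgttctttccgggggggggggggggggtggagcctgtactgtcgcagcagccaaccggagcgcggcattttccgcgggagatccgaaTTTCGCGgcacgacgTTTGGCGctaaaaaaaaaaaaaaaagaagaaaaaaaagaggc
E2F3 promoter, chr6:20401729-20401878, plus strand: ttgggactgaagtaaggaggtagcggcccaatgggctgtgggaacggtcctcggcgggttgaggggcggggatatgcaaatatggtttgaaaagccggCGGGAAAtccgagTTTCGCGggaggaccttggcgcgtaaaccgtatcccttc
TFDP1 promoter, chr13:113584603-113584752, plus strand: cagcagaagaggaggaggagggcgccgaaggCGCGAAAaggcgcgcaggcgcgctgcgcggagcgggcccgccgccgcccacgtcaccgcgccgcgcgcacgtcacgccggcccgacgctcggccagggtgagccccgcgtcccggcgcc
E2F7 promoter, chr12:77065570-77065719, minus strand: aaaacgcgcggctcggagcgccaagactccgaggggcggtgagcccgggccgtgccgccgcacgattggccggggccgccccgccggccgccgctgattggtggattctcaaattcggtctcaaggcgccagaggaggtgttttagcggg

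The E2F1 window held 3 matches, which began 37, 32 and 20 bases before the start, the one at 32 on the minus strand and overlapping the one at 37. The E2F2 window held 2, at 57 and 42 bases, and the E2F3 window 2, at 52 bases on the minus strand and 39 bases. TFDP1 had 1 match, at 119 bases on the minus strand, and E2F6 had 1, at 78 bases. None of the 4 spellings was in the searched windows of E2F4, E2F7 and TFDP2. Of the windows not shown, E2F4 fell with gefitinib and TFDP2 fell with 2 mg/mL CKI, both without a match. E2F6, with a match, fell with gefitinib and rose with 2 mg/mL CKI. The CKI calls of E2F6 and TFDP2 did not hold under every setting. A link between matches and direction was not tested. Of 35116 RefSeq windows of this length, 4.67% held at least 1 match and 0.208% at least 2. A match describes these letters and does not show that a factor binds there.

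Library totals ran from 16428398 to 26264162 counts, and 15789 genes with 99.97% of all counts were tested. Levels are given as CPM, the depth-scaled count, with library totals scaled by the TMM factors, and a floor of 3 counts came to 0.107 to 0.193 CPM. The labels give with H1975 a catalogue number that belongs to the breast line MCF-7. All 6 lung adenocarcinoma line markers had a median of at least 1 CPM, with NKX2-1 at 44.7 CPM and EGFR at 96.5 CPM, against 0 of 5 luminal breast markers (ESR1 0.125 CPM, PGR 0). In 10 libraries ALB, the liver's albumin gene, had 2581 to 3557 counts, against at most 8 in the other 38: all 3 with 2 mg/mL CKI and 75 µM gefitinib, libraries 1 and 3 with 2 mg/mL CKI and 50 µM gefitinib, libraries 2 and 3 with 1 mg/mL CKI and 75 µM gefitinib, and all 3 with 2.5 mg/mL YFSJ alone. The sum of the 12 liver markers reached 250 to 277 CPM with 2 mg/mL CKI and 75 µM gefitinib, against 66.9 to 74.9 CPM with 75 µM gefitinib alone; 1 of the 12, SERPINA1, had a median of at least 1 CPM over all libraries. None of 6 blood cell markers did, and 3 of 5 fibroblast markers did (COL1A1, COL1A2 and PDGFRB), with DCN at a median of 0. At 0 h, RNR2, the mitochondrial large ribosomal RNA, took 1.22% and 1.69% of counts in libraries 1 and 2 and 0.457% in library 3. Its highest share was 2.18%, in library 2 with 2.5 mg/mL YFSJ and 75 µM gefitinib, which also differed from its replicates (chi-square per gene of 44.0 and 45.5, against 4.28 between the other two). P-values measure the spread between replicates of 1 line. A lower level in such bulk libraries can come from fewer cells that express a gene or from less RNA per cell, and the 2 cannot be told apart.

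Per kilobase of the longest coding transcript, E2F1 and E2F4 were the most abundant members in untreated cells at 24 h, with 76.7 and 68.3 CPM per kb, followed by TFDP1 with 48.5. The other 7 lay between 1.92 (E2F2) and 7.13 (E2F8) CPM per kb. With 75 µM gefitinib the order changed: E2F4 led with 51.0 CPM per kb, ahead of TFDP1 with 21.8, E2F1 with 17.9 and E2F7 with 8.70. With 2 mg/mL CKI E2F4 had 59.0, E2F1 37.9, TFDP1 28.8 and E2F7 18.2 CPM per kb. In untreated cells E2F7 had 5.49 CPM per kb, below 7 of the other 9 members.

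**Figure D1:**
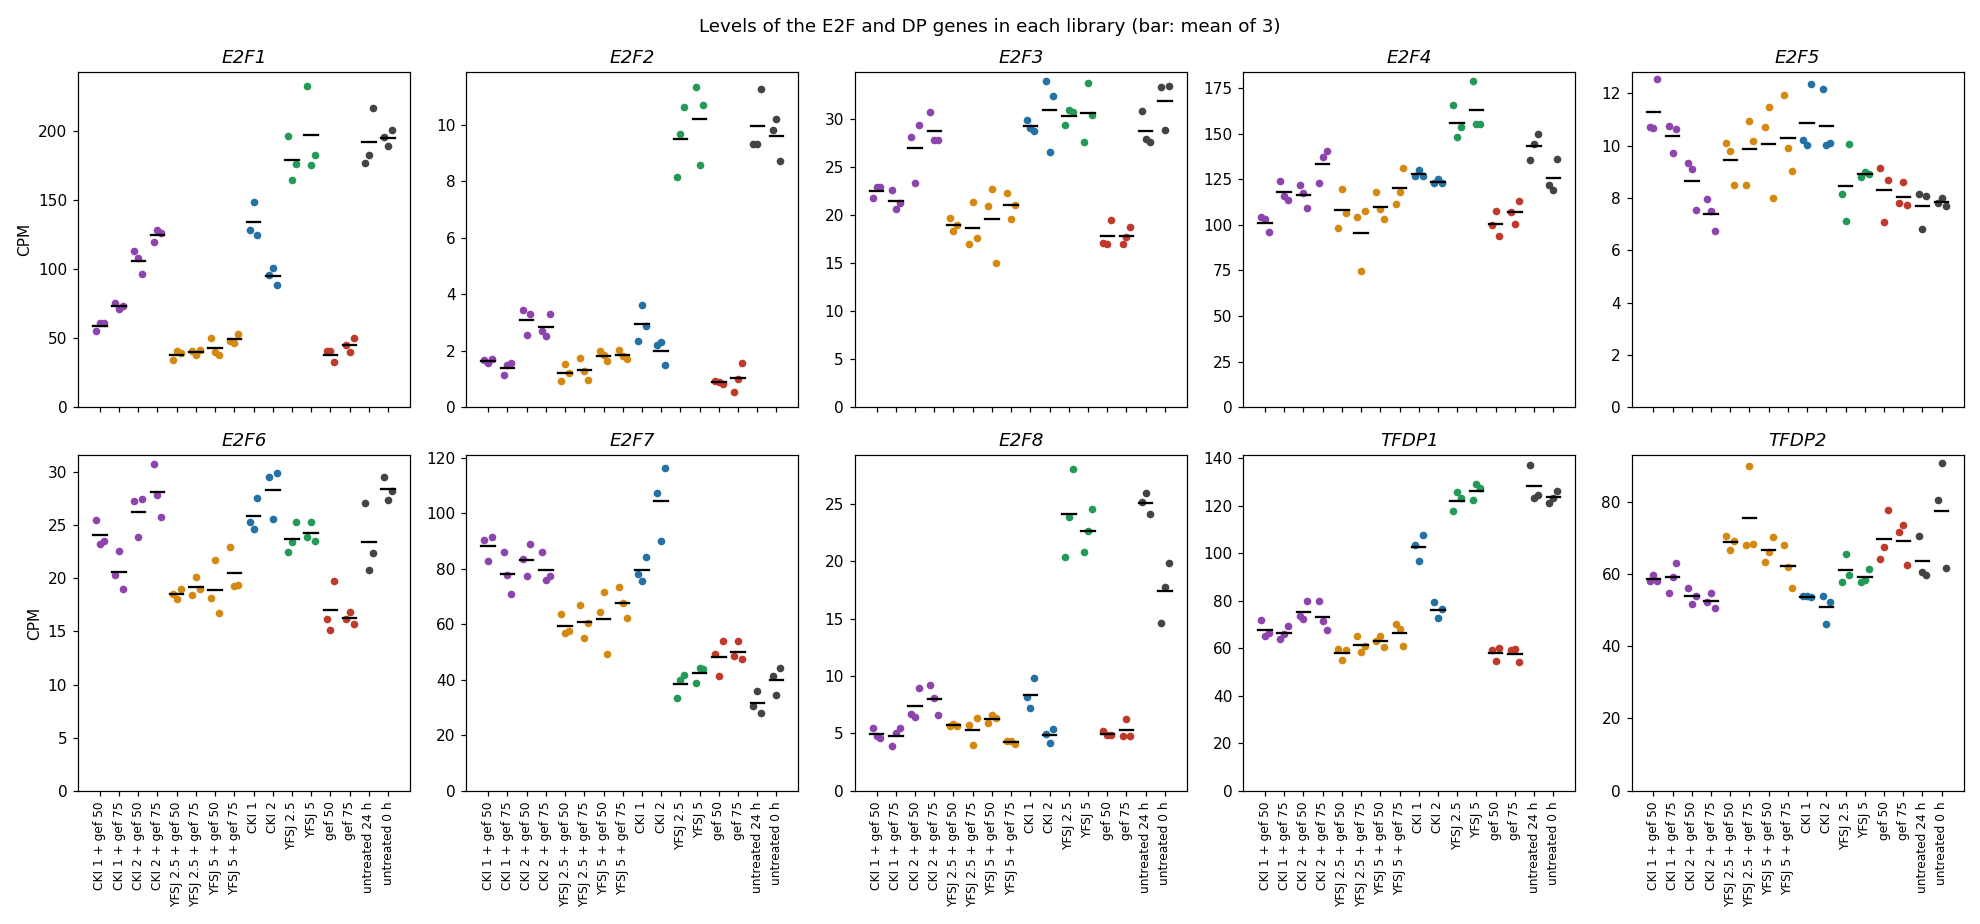
Level of each member in CPM (y axis, from 0) in each of the 48 libraries, by group (x axis, doses in µM for gefitinib, "gef", and in mg/mL for CKI and YFSJ); points are libraries and bars are means of 3. E2F1, E2F2, E2F8 and TFDP1 were lower than in untreated cells in every group that received gefitinib or CKI, while E2F7 was highest with CKI, at 105 CPM with 2 mg/mL.

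Gefitinib alone lowered the activators, the atypical repressor E2F8 and the DP partner TFDP1. With 75 µM, 7 of 10 members fell and 1 rose, and the same 8 were called with 50 µM. Of all genes tested, 54.7% were called with 75 µM (27.1% lower, 27.6% higher) and 54.4% with 50 µM (26.8% lower, 27.6% higher). E2F1, the activator best known for driving S phase entry, had 41.0, 40.3 and 32.5 CPM with 50 µM gefitinib and 44.9, 39.9 and 49.8 CPM with 75 µM, against 177, 182 and 217 CPM in untreated cells. The highest gefitinib library lay far below the lowest untreated one. Its log2 change was -2.34 ± 0.11 (SE) with 50 µM and -2.10 ± 0.11 with 75 µM (edgeR quasi-likelihood test, adjusted p = 4.6e-22 and 1.4e-20).

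E2F2, the least abundant activator, had the largest fall of the family. Its level was 0.927, 0.905 and 0.824 CPM with 50 µM gefitinib and 0.544, 0.988 and 1.56 CPM with 75 µM, against 9.31, 9.34 and 11.3 CPM in untreated cells. No library overlapped, and the lowest of the 6 gefitinib libraries rested on 9 counts. The log2 changes of E2F2 were -3.49 ± 0.22 and -3.26 ± 0.22 (adjusted p = 1.1e-17 and 6.9e-17). E2F3, the remaining activator, had 17.1, 17.0 and 19.4 CPM with 50 µM and 17.0, 17.7 and 18.7 CPM with 75 µM, against 30.8, 27.9 and 27.6 CPM in untreated cells, a fall of 0.69 ± 0.11 with either dose (adjusted p = 9.4e-07 for both).

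Among the repressors, E2F8 had 5.19, 4.84 and 4.89 CPM with 50 µM gefitinib and 4.78, 6.22 and 4.79 CPM with 75 µM, against 25.2, 25.9 and 24.1 CPM in untreated cells. Its log2 changes were -2.33 ± 0.15 and -2.25 ± 0.15 (adjusted p = 3.0e-17 and 1.1e-16). E2F7, the other atypical member, went the opposite way: 49.1, 41.4 and 54.1 CPM with 50 µM and 48.7, 53.9 and 47.3 CPM with 75 µM, against 30.6, 35.8 and 28.1 CPM in untreated cells. All 6 gefitinib libraries lay above all 3 untreated ones, and E2F7 rose by 0.62 ± 0.12 and 0.67 ± 0.12 (adjusted p = 2.4e-05 and 6.5e-06). The pocket-protein partner E2F4 averaged 101 ± 6.9 CPM with 50 µM and 107 ± 6.1 CPM with 75 µM, against 143 ± 7.2 CPM in untreated cells (SD, n = 3 each), with log2 changes of -0.51 ± 0.09 and -0.42 ± 0.09. E2F6, the Polycomb-linked repressor, had log2 changes of -0.46 ± 0.10 and -0.53 ± 0.11, also called. E2F5, the second pocket-protein partner, averaged 8.30 and 8.04 CPM against 7.68 CPM and was not called, with a 95% interval for 75 µM of -0.23 to 0.35.

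The DP partners parted. TFDP1 had 59.0, 54.5 and 59.9 CPM with 50 µM gefitinib and 59.2, 59.6 and 54.3 CPM with 75 µM, against 137, 123 and 125 CPM in untreated cells. It fell by 1.15 ± 0.07 with either dose (adjusted p = 1.2e-17 for both), with no overlap. TFDP2 averaged 69.7 ± 7.1 CPM with 50 µM and 69.3 ± 5.9 CPM with 75 µM, against 63.6 ± 5.9 CPM in untreated cells. It was not called, and the interval for 75 µM ran from -0.09 to 0.33.

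No member was called between 75 and 50 µM gefitinib by edgeR's quasi-likelihood test (0.0317% of all genes were), and DESeq2 called 0. Of the members 1 had an unadjusted p under 0.05, as did 471 of the 15789 genes. The 95% interval of the difference for E2F1 was 0.02 to 0.47 on the log2 scale, and for TFDP1 -0.15 to 0.15.

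**Figure D2:**
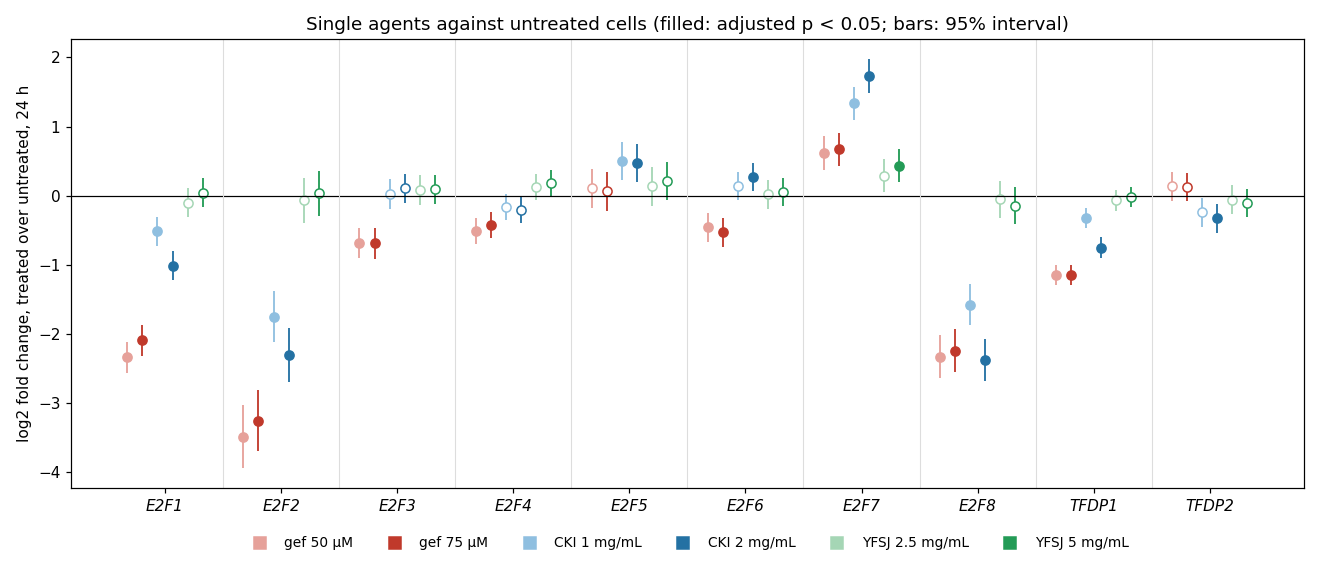
Log2 fold change of each member (x axis) in cells given 1 agent over untreated cells at 24 h (y axis), with 95% intervals as bars; filled points had an adjusted p under 0.05. E2F1, E2F2, E2F8 and TFDP1 lie below 0 with gefitinib and CKI, E2F7 lies above 0 with both, and the YFSJ points stay near 0 except E2F7 with 5 mg/mL at 0.43.

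CKI alone also lowered E2F1, E2F2, E2F8 and TFDP1 and raised E2F7, while E2F3 was not called. With 2 mg/mL, 5 members fell and 3 rose, and with 1 mg/mL 4 fell and 2 rose. Of all genes, 51.2% were called with 2 mg/mL (27.1% lower, 24.1% higher) and 27.9% with 1 mg/mL (14.7% lower, 13.2% higher). E2F1 had 95.7, 101 and 88.4 CPM with 2 mg/mL CKI and 129, 149 and 125 CPM with 1 mg/mL, against 177, 182 and 217 CPM in untreated cells. The groups of both doses lay below the untreated one and apart from each other. The log2 changes were -1.02 ± 0.11 and -0.52 ± 0.10 (edgeR, adjusted p = 7.4e-11 and 1.5e-04). The CKI, YFSJ and gefitinib comparisons use the same 3 untreated libraries, so their values are given side by side only, and the combinations likewise share the gefitinib libraries. The summed level of the 6 lung markers was 1608 to 1623 CPM with 2 mg/mL CKI and 1794 to 1948 CPM with 1 mg/mL, against 2722 to 3159 CPM in untreated cells, and its part in the CKI results was not tested. KRT7 had the highest median of the 6 over all libraries, 1445 CPM, against 44.7 CPM for NKX2-1, so the sum does not show the course of NKX2-1.

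E2F2 had 2.20, 2.30 and 1.499 CPM with 2 mg/mL CKI and 2.34, 3.62 and 2.86 CPM with 1 mg/mL, against 9.31, 9.34 and 11.3 CPM in untreated cells, with log2 changes of -2.31 ± 0.19 and -1.76 ± 0.18. E2F8 had 4.96, 4.13 and 5.42 CPM with 2 mg/mL and 8.13, 7.20 and 9.79 CPM with 1 mg/mL, against 25.2, 25.9 and 24.1 CPM in untreated cells. Its log2 changes were -2.38 ± 0.15 and -1.58 ± 0.14 (adjusted p = 4.8e-17 and 7.2e-12). At 2 mg/mL the E2F8 level overlapped that of the gefitinib groups, whereas E2F1 lay above both of them. TFDP1 had 79.3, 72.8 and 76.4 CPM with 2 mg/mL and 103, 96.7 and 108 CPM with 1 mg/mL, against 137, 123 and 125 CPM in untreated cells, with log2 changes of -0.75 ± 0.07 and -0.32 ± 0.07.

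E2F7 reached its highest level of the 16 groups with 2 mg/mL CKI. It had 107, 90.01 and 116 CPM with 2 mg/mL and 78.3, 75.7 and 84.3 CPM with 1 mg/mL, against 30.6, 35.8 and 28.1 CPM in untreated cells. E2F7 rose by 1.73 ± 0.12 and 1.34 ± 0.12 (adjusted p = 5.0e-16 and 3.5e-12), and the doses did not overlap with each other or with untreated cells.

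Among the remaining repressors E2F5 was called at both CKI doses and E2F6 at 2 mg/mL only. E2F5 averaged 10.8 ± 1.2 CPM with 2 mg/mL and 10.9 ± 1.3 CPM with 1 mg/mL, against 7.68 ± 0.74 CPM in untreated cells, and rose by 0.48 ± 0.14 and 0.50 ± 0.14 (adjusted p = 0.0032 and 0.0047). Without library 3 of the 1 mg/mL group its adjusted p was 0.055. The E2F5 row is uncertain: its exons share 969 bases with a protein-coding gene on the opposite strand, and the libraries are unstranded, so reads of both cannot be told apart. E2F6 rose by 0.27 ± 0.10 with 2 mg/mL (adjusted p = 0.024), with overlapping groups. That call was lost without library 1 or 3 of the 2 mg/mL group or library 2 or 3 of the untreated group (adjusted p 0.079, 0.094, 0.15 and 0.087), and with no filter on low counts or with only the libraries compared (0.053 and 0.055). E2F4 averaged 124 ± 1.1 CPM with 2 mg/mL against 143 ± 7.2 CPM, and was not called (adjusted p = 0.056). E2F3 averaged 31.0 ± 3.9 CPM with 2 mg/mL and 29.2 ± 0.59 CPM with 1 mg/mL, against 28.7 ± 1.8 CPM in untreated cells; neither dose was called, and the interval for 2 mg/mL was -0.11 to 0.32. TFDP2 had 54.0, 46.2 and 52.1 CPM with 2 mg/mL, against 70.4, 60.6 and 59.8 CPM in untreated cells, and fell by 0.33 ± 0.10 (adjusted p = 0.0073). With library-size scaling its log2 change was -0.13 (adjusted p = 0.31), and it was not called without library 2 of the 2 mg/mL group (adjusted p = 0.057) or library 1 of the untreated group (adjusted p = 0.0707).

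Between the CKI doses 5 members were called, against 32.7% of all genes. With 2 mg/mL relative to 1 mg/mL, E2F7 rose by 0.40 ± 0.11, while the log2 changes were -0.80 ± 0.16 for E2F8, -0.55 ± 0.21 for E2F2, -0.50 ± 0.11 for E2F1 and -0.43 ± 0.07 for TFDP1. The count was 3 without library 3 of the 2 mg/mL group, where E2F1, E2F8 and TFDP1 were called. E2F2 was also not called without library 2 or 3 of the 1 mg/mL group or library 1 of the 2 mg/mL group, with library-size scaling, or with only the libraries compared.

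YFSJ alone left the family near the untreated level. With 2.5 mg/mL 0 members were called by edgeR (2.93% of all genes were), and DESeq2 called 0. Of the members 1 had an unadjusted p under 0.05, as did 2616 of the 15789 genes. All 3 libraries of this group were rich in ALB and no untreated one was, so ALB and treatment cannot be told apart. With a term for such libraries 48 genes were called in place of 463. With 5 mg/mL 1 was called, against 6.48% of all genes: E2F7 had 38.8, 44.3 and 43.8 CPM, against 30.6, 35.8 and 28.1 CPM in untreated cells. It rose by 0.43 ± 0.12 (adjusted p = 0.022) and lost the call without library 1 or 3 of the untreated group (adjusted p 0.082 and 0.11) and without library 2 or 3 of the 5 mg/mL group (0.0700 and 0.0795). With library-size scaling its adjusted p was 0.053. E2F1 had 233, 175 and 183 CPM with 5 mg/mL and 196, 164 and 176 CPM with 2.5 mg/mL, against 177, 182 and 217 CPM in untreated cells, so the groups overlapped; the interval for 5 mg/mL was -0.17 to 0.25. For E2F8 it was -0.42 to 0.13 and for TFDP1 -0.17 to 0.12. Between 5 and 2.5 mg/mL 0 members were called by edgeR (0.374% of all genes), 0 had an unadjusted p under 0.05, and DESeq2 called 0. With the ALB term 0 genes were called between these doses in place of 59.

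Adding CKI to gefitinib left most of the family higher than with gefitinib alone. With 2 mg/mL CKI and 75 µM gefitinib, 8 members were higher and 1 lower than with 75 µM gefitinib alone (58.2% of all genes were called, 28.8% higher and 29.4% lower), and with 2 mg/mL CKI and 50 µM gefitinib 7 were higher and 1 lower than with 50 µM alone (53.6%, 26.6% higher and 27.1% lower). E2F1 had 119, 129 and 126 CPM with 2 mg/mL CKI and 75 µM gefitinib, against 44.9, 39.9 and 49.8 CPM with 75 µM alone. It had 113, 108 and 96.3 CPM with 2 mg/mL CKI and 50 µM gefitinib, against 41.0, 40.3 and 32.5 CPM with 50 µM alone. The difference was 1.48 ± 0.11 on the log2 scale at each gefitinib dose (edgeR, adjusted p = 2.6e-15 at 75 µM and 3.9e-15 at 50 µM), and no libraries overlapped. With 2 mg/mL CKI alone E2F1 had 95.7, 101 and 88.4 CPM, so with 75 µM gefitinib added all 3 libraries lay above those of CKI alone; no test of that pair was made.

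E2F2 had 2.70, 2.52 and 3.31 CPM with 2 mg/mL CKI and 75 µM gefitinib, against 0.544, 0.988 and 1.56 CPM with 75 µM alone, a difference of 1.46 ± 0.25 (adjusted p = 2.3e-06). At 50 µM the difference was 1.80 ± 0.24 (adjusted p = 3.8e-08). E2F3 had 30.7, 27.8 and 27.8 CPM with both agents at 2 mg/mL and 75 µM, against 17.0, 17.7 and 18.7 CPM with gefitinib alone. Its difference was 0.69 ± 0.11, and at 50 µM 0.59 ± 0.11. The E2F3 level with both agents overlapped that of untreated cells, at 30.8, 27.9 and 27.6 CPM.

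E2F7 had 85.9, 75.8 and 77.3 CPM with 2 mg/mL CKI and 75 µM gefitinib, against 48.7, 53.9 and 47.3 CPM with 75 µM alone, and was higher by 0.67 ± 0.12; at 50 µM it was higher by 0.79 ± 0.12. These levels lay below the 107, 90.01 and 116 CPM of 2 mg/mL CKI alone. E2F8 had 9.23, 8.05 and 6.58 CPM with both agents at 2 mg/mL and 75 µM, against 4.78, 6.22 and 4.79 CPM with gefitinib alone. The differences of E2F8, 0.60 ± 0.16 at 75 µM and 0.56 ± 0.16 at 50 µM (adjusted p = 0.0016 and 0.0031), did not hold under every setting. With a term for the libraries rich in ALB they were 0.25 and 0.33 (adjusted p = 0.38 and 0.16), and at 50 µM the adjusted p was 0.051 without library 3 of the group with both agents.

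E2F6 was higher by 0.79 ± 0.10 at 75 µM and by 0.62 ± 0.10 at 50 µM, and E2F4 by 0.32 ± 0.09 at 75 µM (adjusted p = 0.0035). At 50 µM E2F4 was not called (0.21 ± 0.09, adjusted p = 0.059). E2F5 was not called at either dose, with an interval of -0.40 to 0.16 at 75 µM. TFDP1 had 79.7, 71.5 and 67.7 CPM with 2 mg/mL CKI and 75 µM gefitinib, against 59.2, 59.6 and 54.3 CPM with 75 µM alone, and was higher by 0.34 ± 0.07. TFDP2 was the member that went down: it had 52.2, 54.9 and 50.7 CPM, against 71.8, 73.5 and 62.6 CPM with 75 µM alone, and fell by 0.40 ± 0.10 (adjusted p = 0.0010). At 50 µM TFDP2 fell by 0.37 ± 0.10 (adjusted p = 0.0022).

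All 3 libraries with 2 mg/mL CKI and 75 µM gefitinib, and 2 of 3 with 50 µM, were rich in ALB. With a term for those libraries E2F1 was higher by 1.53 at 75 µM and by 1.52 at 50 µM, E2F2 by 1.05 and 1.52, and E2F7 by 0.70 and 0.81, all still called. TFDP1 at 75 µM was higher by 0.25 with the term (edgeR, adjusted p = 0.0495) and by 0.34 without it. The term rests on groups with both kinds of library, 2 mg/mL CKI with 50 µM gefitinib and 1 mg/mL CKI with 75 µM. Within the group of 2 mg/mL CKI and 75 µM gefitinib, ALB and treatment cannot be told apart. The lung marker sum was 1639 to 1821 CPM with 2 mg/mL CKI and 75 µM gefitinib, against 3062 to 3299 CPM with 75 µM alone, and the fibroblast marker sum 238 to 331 CPM against 583 to 668 CPM. The part of these markers in the combination results was not tested.

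With 1 mg/mL CKI fewer members were called at 75 µM than with 2 mg/mL; the CKI doses were not tested against each other in combination. Together with 75 µM gefitinib 5 members were higher than with 75 µM alone (34.6% of all genes were called, 17.3% higher and 17.3% lower), and together with 50 µM gefitinib 7 were higher than with 50 µM alone (31.8%, 15.5% higher and 16.2% lower). E2F1 had 75.6, 71.2 and 73.6 CPM with 1 mg/mL CKI and 75 µM gefitinib, against 44.9, 39.9 and 49.8 CPM with 75 µM alone, and was higher by 0.71 ± 0.11. With 50 µM E2F1 was higher by 0.64 ± 0.11, and E2F7 by 0.65 ± 0.12 at 75 µM and 0.87 ± 0.12 at 50 µM. E2F5, E2F6 and TFDP1 were the other members called at both doses, by 0.37, 0.35 and 0.20 at 75 µM and by 0.45, 0.50 and 0.23 at 50 µM. E2F2 and E2F3 were called at 50 µM (0.90 ± 0.26 and 0.33 ± 0.11). E2F8 averaged 4.81 ± 0.80 CPM with 1 mg/mL CKI and 75 µM gefitinib, against 5.26 ± 0.83 CPM with 75 µM alone, and was not called. At 50 µM 4 members were called without library 2 of the gefitinib group. At 75 µM 3 were called without library 2 or without library 3 of the group with both agents, and 3 with the ALB term, where E2F6 and TFDP1 were lost (adjusted p 0.10 and 0.24). E2F5 at 75 µM was also not called without library 1 of the group with both agents or library 1 or 3 of the gefitinib group, and TFDP1 not without that library 3. At 50 µM E2F3 and E2F5 were not called without library 3 of the group with both agents, E2F3 not without library 1 of the gefitinib group, and TFDP1 not without library 1 of the group with both agents. TFDP1 was also not called with no filter on low counts (adjusted p 0.060 at 50 µM and 0.099 at 75 µM), nor at 50 µM with only the libraries compared (0.055).

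**Figure D3:**
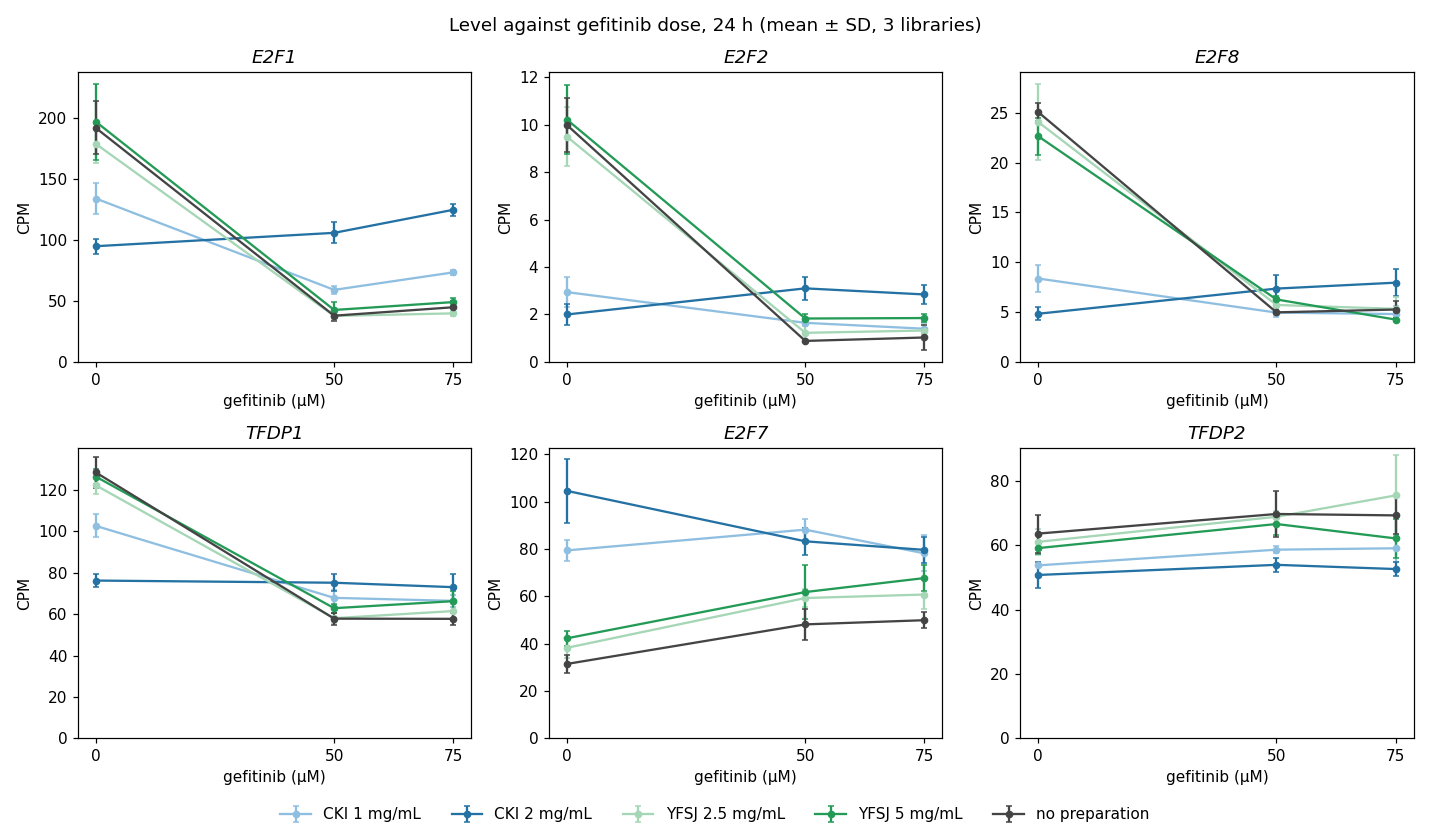
Level in CPM (y axis, from 0) of 6 members against gefitinib dose in µM (x axis) with CKI, with YFSJ or with no preparation, at 24 h; points are means and bars SD of 3 libraries. The line for 2 mg/mL CKI is nearly flat or rising for E2F1, E2F2 and E2F8, where the line without a preparation drops steeply, and for E2F7 it falls while the line without a preparation rises.

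With YFSJ added to gefitinib at most 1 member was called against gefitinib alone. With 5 mg/mL and 75 µM gefitinib 1 member was called, against 3.46% of all genes: E2F7 had 73.3, 67.6 and 62.3 CPM, against 48.7, 53.9 and 47.3 CPM with 75 µM alone, and was higher by 0.44 ± 0.12 (edgeR, adjusted p = 0.020). The call was lost without library 1 or 3 of the gefitinib group (adjusted p 0.094 and 0.12) or library 1 or 2 of the group with both agents (0.14 and 0.067). Without library 3 of the gefitinib group, E2F2 was called instead. DESeq2 called E2F6 and E2F7. In this comparison 6 members had an unadjusted p under 0.05, as did 2465 of the 15789 genes. E2F2 and E2F6 were higher by 0.84 ± 0.27 and 0.34 ± 0.11 (adjusted p = 0.067 and 0.062).

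With 5 mg/mL YFSJ and 50 µM gefitinib 1 member was called, against 0.937% of all genes: E2F2 had 2.00, 1.85 and 1.64 CPM, against 0.927, 0.905 and 0.824 CPM with 50 µM alone, and was higher by 1.05 ± 0.27 (adjusted p = 0.041). It was not called without any 1 of the 3 gefitinib libraries or without library 1 or 2 of the group with both agents, with adjusted p from 0.12 to 0.33, nor with only the libraries compared (0.34). Without library 3 of the group with both agents, E2F7 was called beside it. Here 4 members had an unadjusted p under 0.05, as did 1823 of the 15789 genes. With 2.5 mg/mL YFSJ edgeR called 0 members at 75 µM (1.83% of all genes) and 0 at 50 µM (0.0887%), and DESeq2 called 0 at both. At 75 µM 3 members had an unadjusted p under 0.05, as did 3410 of the 15789 genes. At 50 µM 1 member had, as did 1037 genes. E2F1 had 40.7, 37.4 and 41.3 CPM with 2.5 mg/mL YFSJ and 75 µM gefitinib, against 44.9, 39.9 and 49.8 CPM with 75 µM alone, and the interval of the difference was -0.39 to 0.05. E2F4 had 104, 74.7 and 107 CPM there, the lowest in the library with the high RNR2 share. Without that library the count of members called was still 0.

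The interaction asks whether the change with both agents differs from the sum of the separate log2 changes, averaged over the 4 dose pairs; a positive value means a level above that sum. For CKI and gefitinib 8 of 10 members were called, against 39.5% of all genes. The values were 3.18 ± 0.22 for E2F2, 2.23 ± 0.16 for E2F8, 1.84 ± 0.11 for E2F1 and 0.83 ± 0.08 for TFDP1 (edgeR, adjusted p = 4.2e-16, 7.3e-16, 3.3e-18 and 3.2e-12). These are the 4 members that each agent alone lowered at both doses. For such members a positive value does not need a level above that of gefitinib alone. E2F8 averaged 4.95 CPM with 1 mg/mL CKI and 50 µM gefitinib, against 4.98 CPM with 50 µM alone. E2F7, which each agent alone raised, had a negative interaction of -0.79 ± 0.13 (adjusted p = 1.7e-06). E2F3, E2F4 and E2F6 had values of 0.41 ± 0.11, 0.36 ± 0.10 and 0.36 ± 0.11. E2F5 and TFDP2 were not called, with intervals of -0.59 to -0.0011 and -0.25 to 0.19 and adjusted p of 0.10 and 0.87. With the ALB term E2F6 was not called (0.29, adjusted p = 0.068), nor without library 1 of untreated cells (0.24, adjusted p = 0.10). For YFSJ and gefitinib edgeR called 0 members (1.70% of all genes), and DESeq2 called 0. Of the members 1 had an unadjusted p under 0.05, as did 2711 of the 15789 genes. The largest value was E2F2 at 0.69 ± 0.22 (adjusted p = 0.094), which was called when library 3 of the 75 µM gefitinib group was left out.

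In untreated cells, 4 members were called between 24 h and 0 h, against 25.2% of all genes. E2F8 had 25.2, 25.9 and 24.1 CPM at 24 h, against 14.6, 17.8 and 19.9 CPM at 0 h, and rose by 0.52 ± 0.14 (adjusted p = 0.0049). E2F6, E2F7 and TFDP2 had log2 changes of -0.27 ± 0.10, -0.35 ± 0.12 and -0.28 ± 0.10. The count was 0 without library 1 at 0 h, 2 without library 2 at 0 h or library 2 at 24 h, 1 without library 3 at 24 h, and 0 with library 3 as the only one at 0 h, where TFDP2 changed sign (0.0482, adjusted p = 0.97). With library-size scaling E2F6, E2F7 and TFDP2 were not called (edgeR, adjusted p 0.23, 0.15 and 0.16). The RNR2 share differed among the 0 h libraries, and its part was not tested. E2F1 averaged 192 ± 22 CPM at 24 h and 195 ± 5.9 CPM at 0 h and was not called.

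The pathway around the family was read through 5 lists, whose counts stand beside 54.7% of all genes called with 75 µM gefitinib (27.6% higher, 27.1% lower) and 51.2% with 2 mg/mL CKI (24.1% higher, 27.1% lower). Of 26 G1/S target genes that E2F proteins activate, all 26 fell with 75 µM gefitinib and all 26 with 2 mg/mL CKI, with medians of -2.09 and -1.29 on the log2 scale beside 0.02 and -0.01 over all genes tested. All 26 also fell with 50 µM gefitinib and with 1 mg/mL CKI (medians -2.13 and -0.77), where 26.8% and 14.7% of all genes fell. RRM2, a subunit of ribonucleotide reductase, averaged 43.9 ± 1.2 CPM with 75 µM gefitinib and 85.8 ± 10 CPM with 2 mg/mL CKI, against 327 ± 20 CPM in untreated cells (SD, n = 3 each). UHRF1, which maintains DNA methylation at replication, averaged 48.03 ± 2.2 and 83.7 ± 2.0 CPM, against 349 ± 23 CPM in untreated cells. MCM3, part of the replicative helicase, had log2 changes of -1.99 ± 0.07 with 75 µM gefitinib and -1.77 ± 0.07 with 2 mg/mL CKI. With YFSJ alone edgeR called 0 of the 26 at either dose, and DESeq2 called 2 at 5 mg/mL and 1 at 2.5 mg/mL. Of the 26, 4 had an unadjusted p under 0.05 at 5 mg/mL, as did 3333 of the 15789 genes. At 2.5 mg/mL 2 had, as did 2616 genes. With 2 mg/mL CKI and 75 µM gefitinib 24 of the 26 were higher than with 75 µM alone, with a median of 0.93. Of all genes, 28.8% were higher there. In the CKI by gefitinib interaction all 26 were called, all positive, with a median of 1.71, against 39.5% of all genes called in either direction.

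Of 10 genes for pocket proteins, the MuvB core, B-MYB and FOXM1, which repress or activate cell cycle genes together with E2F proteins, 8 fell with 75 µM gefitinib (median -0.97) and 7 with 2 mg/mL CKI (median -0.68), and none rose in either. RB1, the retinoblastoma gene, averaged 7.31 ± 0.68 CPM with 75 µM gefitinib and 9.57 ± 0.57 CPM with 2 mg/mL CKI, against 15.4 ± 1.5 CPM in untreated cells, with log2 changes of -1.07 ± 0.14 and -0.69 ± 0.14. RBL1, the pocket protein p107, had log2 changes of -1.69 ± 0.13 and -0.99 ± 0.12. RBL2, the pocket protein p130 of resting cells, fell by 0.67 ± 0.12 with 2 mg/mL CKI and was not called with 75 µM gefitinib (0.14 ± 0.12). MYBL2, which encodes B-MYB, fell by 2.18 ± 0.12 with 75 µM gefitinib, while LIN9 of the MuvB core had log2 changes of -1.45 ± 0.11 with it and -0.90 ± 0.11 with 2 mg/mL CKI. RBBP4, another MuvB subunit, fell by 1.04 ± 0.10 with 2 mg/mL CKI.

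Of 16 G1 cyclins, kinases and inhibitors that act upstream of E2F, 2 rose and 10 fell with 75 µM gefitinib (median -0.47), and 2 rose and 7 fell with 2 mg/mL CKI (median 0.01). The 9 of 16 called with CKI are near the share of all genes. CDKN1A, the kinase inhibitor p21, averaged 204 ± 7.4 CPM with 75 µM gefitinib and 192 ± 9.7 CPM with 2 mg/mL CKI, against 41.8 ± 2.6 CPM in untreated cells, and rose by 2.28 ± 0.08 and 2.20 ± 0.08. CDK2, the kinase of late G1 and S phase, had log2 changes of -1.58 ± 0.08 and -1.07 ± 0.08. CDC25A, a phosphatase that activates CDK2, fell by 2.28 ± 0.11 with 75 µM gefitinib, and CDKN2C, the CDK4 and CDK6 inhibitor p18, fell by 1.42 ± 0.11 with 2 mg/mL CKI.

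Of 8 apoptosis genes known as E2F1 targets, 2 rose and 3 fell with 75 µM gefitinib (median -0.09), and 5 rose and 1 fell with 2 mg/mL CKI (median 0.48). The 5 of 8 called with gefitinib are near the share of all genes, and with library-size scaling 3 of 8 were called. HRK, which encodes a BH3-only death protein, averaged 16.1 ± 0.95 CPM with 75 µM gefitinib and 10.6 ± 0.55 CPM with 2 mg/mL CKI, against 1.52 ± 0.29 CPM in untreated cells. BBC3, which encodes the death protein PUMA, averaged 67.9 ± 9.0 and 29.6 ± 6.7 CPM, against 8.97 ± 1.2 CPM in untreated cells. BCL2L11, which encodes BIM, rose by 0.73 ± 0.12 with 2 mg/mL CKI. HRK rose by 3.41 ± 0.16 and 2.80 ± 0.16 and BBC3 by 2.92 ± 0.22 and 1.73 ± 0.22, in the same groups where E2F1 fell.

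Of 14 Polycomb complex partners of E2F6, 12 passed the filter; RING1 and EHMT2 had few or no counts. With 75 µM gefitinib 7 of the 12 fell and none rose (median -0.37), so the number called in either direction is near the share of all genes, and with 2 mg/mL CKI 6 fell and 4 rose (median -0.11). CBX3, a heterochromatin protein, had log2 changes of -0.87 ± 0.09 and -0.73 ± 0.09. The histone deacetylase gene HDAC2 fell by 0.74 ± 0.11 with 75 µM gefitinib, and WDR5, a subunit of histone methyltransferase complexes, fell by 0.57 ± 0.07. HDAC1 fell by 0.81 ± 0.07 with 2 mg/mL CKI, while RYBP, a RING1-binding protein, rose by 0.69 ± 0.11.

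**Figure D4:**
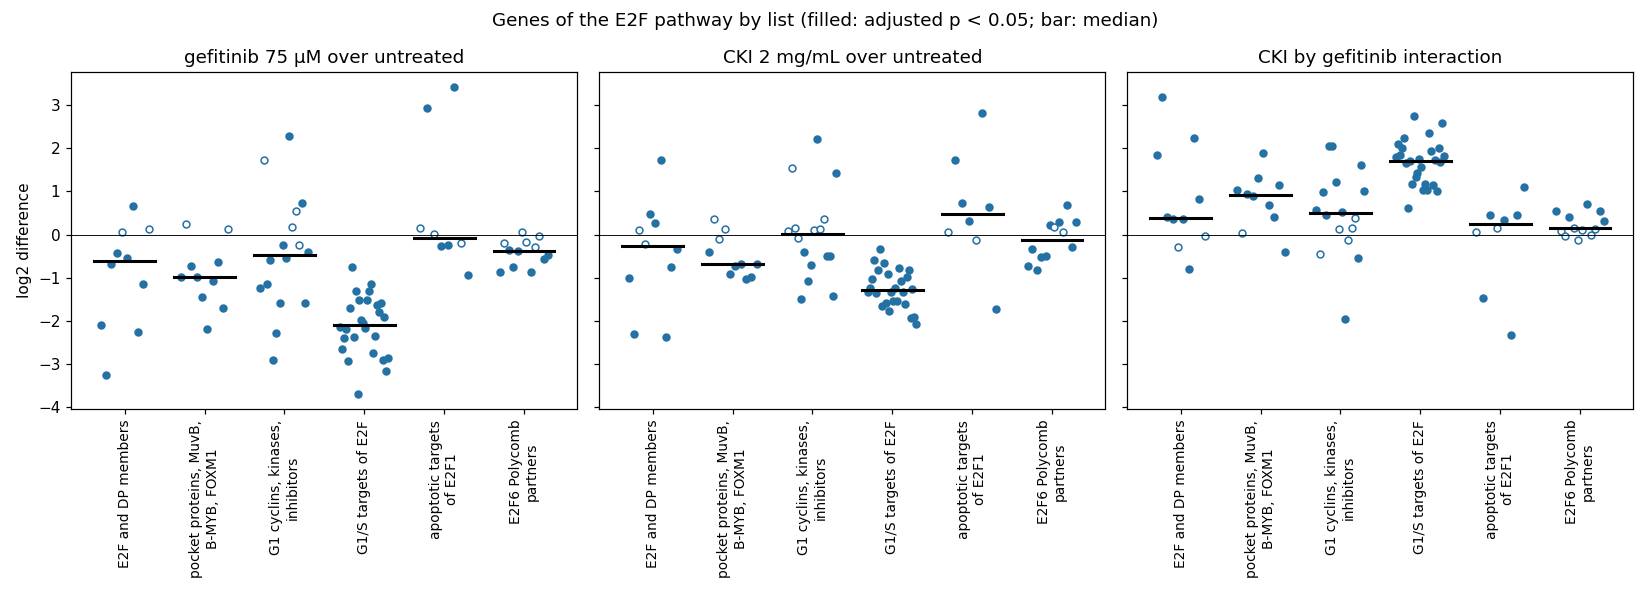
Log2 difference (y axis) of each gene of the family and of the 5 pathway lists (x axis) in cells with 75 µM gefitinib over untreated cells, in cells with 2 mg/mL CKI over untreated cells, and in the CKI by gefitinib interaction; filled points had an adjusted p under 0.05 and bars are list medians. All 26 G1/S targets lie below 0 in the first 2 panels and above 0 in the interaction, while the family itself is spread on both sides of 0.

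Across the 16 group means of log2 CPM, Pearson's r among E2F1, E2F2, E2F8 and TFDP1 ran from 0.84 (E2F1 and E2F8) to 0.96 (E2F2 and TFDP1). E2F1 had r of 0.95 with E2F3, 0.94 with TFDP1, 0.92 with E2F2 and 0.87 with E2F4. E2F7 and E2F8, both atypical repressors, ran against each other, with r of -0.74. These 16 points share treatments and library preparation, so r is a description of the course over groups. Ordered by mean, E2F1 ran from 197 ± 31 CPM with 5 mg/mL YFSJ to 37.8 ± 3.4 CPM with 2.5 mg/mL YFSJ and 50 µM gefitinib, and 5 of its 15 steps between neighbouring groups had no overlap. For E2F4, E2F5 and E2F6 no step between neighbours was without overlap. E2F2 had 2 such steps, TFDP1 had 2, E2F8 had 3, and E2F3, E2F7 and TFDP2 had 1 each. The order was set by these same means and such steps were not counted over all genes, so the counts are a description only.

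The genes whose course was most like E2F1 were CHAF1A, DNAJC9 and MAD2L1 (r 0.996, 0.994 and 0.992, 16 groups). For E2F2 they were MCM2, TOE1 and HELLS (0.979, 0.976 and 0.976), for E2F8 LIG1, ZNF488 and LMNB1 (0.981, 0.980 and 0.978), and for TFDP1 POLA2, WDR76 and FANCI (0.994, 0.994 and 0.993). E2F7 was most like SLC7A11, SNX9 and IL1RL2 (0.984, 0.970 and 0.964), and TFDP2 like PYGB, SPTAN1 and TENM3 (0.959, 0.952 and 0.948).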

How the data were processed

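RNA of 48 libraries of H1975 cells was sequenced unstranded and paired-end. The deposited table holds raw counts per gene symbol; per the submitters' processing notes, Trim Galore 0.4.2, STAR 2.5.3a, edgeR and the build hg19 were used, while the counting tool, annotation and strand setting are not given in the sources used here. Columns were assigned to groups by their titles, and none was left out. From these counts edgeR 4.0.16 (run under R 4.3.3) removed low genes with filterByExpr over the 16 groups (min.count 10, min.total.count 15). It then computed TMM factors and fitted robust quasi-likelihood models that gave every group its own mean, which left 32 residual degrees of freedom. Two-sided contrasts were adjusted by the Benjamini-Hochberg method over 15789 genes, and an adjusted p under 0.05 is a call. The scripts were tested on simulated counts. The interaction averages, over 4 dose pairs, both agents minus each agent alone plus untreated cells. The members and lists were chosen with earlier results of these data known. Named list genes are the 3 with the smallest p for 75 µM gefitinib and for 2 mg/mL CKI, plus RB1, RBL1 and RBL2, except 1 that is not reported here; likeness names the 3 genes with the highest r. Alternatives were other scaling factors, no filter, DESeq2 1.42.0, a replicate block, only the libraries compared, an ALB term, only library 3 at 0 h, and each library left out in turn. Promoters came from RefSeq (GRCh38.p14) and transcript lengths from the GENCODE annotation supplied with the reference; the build differs from that of the counts, so no coordinates were joined. Total counts and floors cover counting error only.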

Additional observations from a re-analysis of the deposited data

Results flagged for a closer look

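For 8 members the change with CKI and gefitinib together differed from the sum of the separate changes by edgeR's quasi-likelihood test of that difference. The log2 values were 1.84 for E2F1, 3.18 for E2F2, 0.41 for E2F3, 0.36 for E2F4, 0.36 for E2F6, -0.79 for E2F7, 2.23 for E2F8 and 0.83 for TFDP1. E2F1 averaged 125 ± 4.8 CPM with 2 mg/mL CKI and 75 µM gefitinib, 94.9 ± 6.2 CPM with that CKI dose alone, 44.8 ± 4.9 CPM with that gefitinib dose alone and 192 ± 22 CPM in untreated cells (SD, n = 3 each). All 3 libraries with both agents at these doses were rich in ALB; with a term for such libraries the E2F1 value was 1.88, that of E2F2 2.94 and that of E2F8 2.03, and that of E2F6 was 0.29 and no longer called.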

How the results depend on the processing

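Called members varied most between 24 h and 0 h (4): library-size scaling and no filter gave 2 each, and only the libraries compared 0. Library-size scaling lost E2F6, E2F7 and TFDP2 there, so its 2 include a member not called otherwise. With only library 3 at 0 h, TFDP2 reversed to 0.0482. Library-size scaling gave 0 for 5 mg/mL YFSJ (1 otherwise), the ALB term 3 for 1 mg/mL CKI with 75 µM gefitinib (5), only the libraries compared 0 for 5 mg/mL YFSJ with 50 µM gefitinib (1), and DESeq2 2 for 5 mg/mL YFSJ with 75 µM (1). Leaving out 1 library gave 0 to 3 for 24 h against 0 h and 0 to 1 for 5 mg/mL YFSJ. It gave 5 to 6 for 1 mg/mL CKI alone and 7 to 8 for 2 mg/mL CKI alone. With 50 and 75 µM gefitinib it gave 4 to 7 and 3 to 5 for 1 mg/mL CKI, and 0 to 2 and 0 to 1 for 5 mg/mL YFSJ. The range was 8 to 9 for 2 mg/mL CKI with 50 µM and 3 to 5 between the CKI doses. For the CKI interaction it was 7 to 8, and for the YFSJ interaction 0 to 1. The count stayed 8 for gefitinib alone at each dose and 9 for 2 mg/mL CKI with 75 µM. Of the 79 member calls, 557 values under other settings kept direction and call in 529 cases, lost the call in 27 and reversed in 1; leaving out 1 library kept 587 and lost 55. Calls gained are not in these tallies. The ALB term can hardly move a comparison whose groups hold no library rich in ALB, and such values are counted in the tally too. Fits with the replicate number as a block called as many members in all 20 comparisons (for example 8 with 75 µM gefitinib and 8 in the CKI interaction). Same-numbered libraries correlated from -0.283 to 0.285 in their deviations, over 0.1 for all 3 numbers in 1 of 18 comparisons, between the YFSJ doses. They were not treated as pairs, but this check cannot exclude a shared batch.

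Counts over all genes moved by more than 1.5 times for 24 h against 0 h (3980; 155 with only the libraries compared, 147 with only library 3 at 0 h, 1070 to 6029 without 1 library), 2.5 mg/mL YFSJ (463; 48 with the ALB term, 162 to 354 without 1 library), 5 mg/mL YFSJ (1023; 407 to 902 without 1 library), YFSJ 2.5 mg/mL with 50 µM gefitinib (14; 28 with only the libraries compared, 39 with DESeq2, 5 to 9 without 1 library) and with 75 µM (289; 185 with library-size scaling, 0 with only the libraries compared, 567 with DESeq2, 29 to 1079 without 1 library), YFSJ 5 mg/mL with 50 µM (148; 0 and 253 with only the libraries compared and DESeq2, 9 to 684 without 1 library) and with 75 µM (546; 1082 with only the libraries compared, 288 to 465 without 1 library), between gefitinib doses (5; 2 with only the libraries compared, 2 to 7 without 1 library), between YFSJ doses (59; 0 with the ALB term, 105 with only the libraries compared, 18 to 45 without 1 library) and the YFSJ interaction (268; 168 with no filter, 168 with the ALB term, 506 with DESeq2, 81 to 512 without 1 library). Library-size scaling moved the share of calls that were higher: 62.0% against 42.9% for 24 h over 0 h, 61.1% against 50.8% for 50 µM gefitinib, 64.5% against 47.2% for 1 mg/mL CKI, 69.0% against 47.1% for 2 mg/mL CKI, 83.3% against 68.7% for 2.5 mg/mL YFSJ, 71.0% against 48.9% and 66.9% against 49.9% for 1 mg/mL CKI with 50 and 75 µM gefitinib, 60.1% against 49.6% for 2 mg/mL CKI with 50 µM, 68.3% against 56.8% for 5 mg/mL YFSJ with 50 µM, 69.9% against 46.3% between CKI doses and 27.6% against 38.1% for the YFSJ interaction. It put the median of all genes at 0.18 for 2 mg/mL CKI (-0.01 with TMM) and 0.13 for 50 µM gefitinib (0.03). The causes were not tested. Low counts limit E2F2, and unstranded reads limit E2F5.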
